A study of Saccharomyces cerevisiae with 12 samples.

Results

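The 50 genes described here encode ribosome biogenesis factors of budding yeast, the proteins that build ribosomes without being part of them. They were taken by name (NOP, UTP, snoRNP and related assembly factors) and not by their values, though with earlier results of these data known. All 50 of 50 were found among the 6607 distinct identifiers of the table, and all 50 passed the filter on low values. The RNA came from BY4742, a haploid laboratory strain of alpha mating type that needs histidine, leucine, lysine and uracil, in mid-log growth, in a minimal medium (yeast nitrogen base, amino acids and 2% dextrose) or in the rich medium YEPD (2% dextrose). Total RNA was incubated with ADP-ribosylcyclase (ADPRC), an enzyme that swaps the nicotinamide of a 5' NAD cap for an alkyne (4-pentynol), and the alkyne was then joined to biotin for capture on streptavidin beads. Mock samples went through the same steps without the enzyme. The 12 libraries form 4 groups of 3: minimal ADPRC, minimal mock, YEPD ADPRC and YEPD mock. All 4 groups share the strain, the alkyne, the biotinylation and the bead capture, and the RNA was neither fragmented nor depleted of ribosomal RNA.

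Ribosome assembly starts in the nucleolus, where RNA polymerase I makes a long precursor of the ribosomal RNAs. Small nucleolar ribonucleoproteins (snoRNPs) modify it: box C/D particles, with the methyltransferase Nop1 (fibrillarin), add methyl groups, and box H/ACA particles, with Cbf5, make pseudouridines. The small-subunit processome, built from the UTP-A, UTP-B and UTP-C modules and many further UTP and other proteins, folds and cleaves the part that becomes the small subunit. A separate set of factors, among them the Nop7-Erb1-Ytm1 complex and the GTPases Nog1 and Nog2, matures the large subunit. Transcription of these genes is known to rise and fall with growth conditions.

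Libraries held 3246900 to 13958188 reads. Frames within the ribosomal DNA took 31.7% ± 1.34 of them in minimal ADPRC, 52.9% ± 2.02 in minimal mock, 75.2% ± 8.15 in YEPD ADPRC and 80.8% ± 1.10 in YEPD mock libraries (SD, n = 3 each). The Watson-strand frames there took 0.0177% in minimal ADPRC and 0.0383% in minimal mock libraries, against 59.0% in YEPD ADPRC and 62.3% in YEPD mock libraries. A difference in library preparation or counting therefore cannot be told apart from growth medium. In YEPD ADPRC replicate 2 those frames held 65.9% of reads, against 79.4% and 80.5% in the other ADPRC libraries of that medium, so results that rest on it are also given without it. Of the strain's markers, LEU2, LYS2 and URA3, which BY4742 lacks, were at 0 in all 12 libraries, and HIS3, whose deletion in this strain is partial, had reads. The alpha-cell pheromone gene MF(ALPHA)1 had medians of 2470 to 3996 normalized counts over the groups, and the a-cell pheromone gene MFA1 1.28 to 4.52. The labels do not state that replicates came from different cultures, and the p-values then reflect only how far these samples spread, technical variation included.

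The 50 genes together took 0.695% ± 0.0132 of the reads outside the ribosomal DNA frames in minimal ADPRC libraries, against 0.792% ± 0.0148 in minimal mock libraries. In YEPD they took 0.900% ± 0.175 in ADPRC libraries, against 1.08% ± 0.0324 in mock libraries (SD, n = 3 each). YEPD ADPRC replicate 2 (0.699%) lay below replicate 3 (1.02%) and the unnumbered library (0.987%), whose column carries no replicate number. Levels are given in normalized counts, the reads of a gene divided by 1 factor per library. They are levels in RNA recovered from beads, in ADPRC and mock libraries alike, and not in total RNA. Per kb of coding length, the median member had 142 normalized counts in minimal ADPRC, 183 in minimal mock, 197 in YEPD ADPRC and 253 in YEPD mock libraries. Among the 5423 tested features of known length, that median stood at percentiles 62.4, 71.2, 70.1 and 77.3 in the same order of groups. The members' median was thus above the middle of all features in each group, and more so in mock than in ADPRC libraries of the same medium. In RNA from whole cultures, fewer cells with an RNA and less RNA per cell cannot be told apart.

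Divided by coding length, the genes for snoRNP proteins had the highest levels of the 50. Without that division the order differed, and whether reads scale with length was not tested. In minimal mock libraries NOP1 averaged 1754 normalized counts, but NOP10 158, NHP2 350 and GAR1 406, against 1199 for UTP20 and 1652 for RRP5. NOP1 (YDL014W) led the 50 genes in 12 of 12 libraries, with 2686 ± 353 normalized counts per kb in minimal ADPRC, 1782 ± 38.2 in minimal mock, 2755 ± 1442 in YEPD ADPRC and 2061 ± 230 in YEPD mock libraries (SD, n = 3 each). The 7 core snoRNP genes were the top 7 in all 6 YEPD libraries, and in the 6 minimal-medium libraries they and NSR1 (YGR159C), the yeast nucleolin, were the top 8. After NOP1 came NOP10 (1126), NHP2 (885), NSR1 (807) and CBF5 (756) in minimal ADPRC libraries, and NOP10 (893), CBF5 (748), NHP2 (743) and NSR1 (738) in minimal mock libraries. In YEPD ADPRC libraries they were NOP10 (1005), GAR1 (922), CBF5 (911) and NHP2 (904), and in YEPD mock libraries CBF5 (922), NHP2 (785), GAR1 (709) and NOP10 (677), all in normalized counts per kb. The other box C/D scaffold genes lay well under NOP1: NOP56 (YLR197W) had 653 per kb in minimal ADPRC, 707 in minimal mock, 574 in YEPD ADPRC and 630 in YEPD mock libraries. NOP58 (YOR310C) had 514, 472, 615 and 592 per kb in the same order. The genes of the 4 box H/ACA proteins were close to each other per kb. The highest per kb of CBF5 (YLR175W), NHP2 (YDL208W), GAR1 (YHR089C) and NOP10 (YHR072W-A) was 1.60 times the lowest in minimal ADPRC, 1.36 times in minimal mock, 1.11 times in YEPD ADPRC and 1.36 times in YEPD mock libraries. Not divided by length, they ran from 158 (NOP10) to 1086 (CBF5) normalized counts in minimal mock libraries. The same ratio per kb was 1.41, 1.76, 1.85 and 2.06 for the 5 UTP-B genes in the same order of groups. For the 3 box C/D genes it was 5.2, 3.8, 4.8 and 3.5, so such closeness was not particular to box H/ACA genes nor common to all snoRNP genes. CBF5, the pseudouridine synthase, had 756 ± 39.0 per kb in minimal ADPRC, 748 ± 42.5 in minimal mock, 911 ± 51.1 in YEPD ADPRC and 922 ± 29.6 in YEPD mock libraries.

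Processome genes were lower per kb. The median of the 6 UTP-A genes was 117 per kb in minimal ADPRC, 118 in minimal mock, 163 in YEPD ADPRC and 164 in YEPD mock libraries, and UTP9 (YHR196W) was the lowest of them in each group. The 5 UTP-B genes had medians of 85.8, 96.4, 125 and 137 per kb in the same order. Among the other small-subunit factors, RRP5 (YMR229C), whose large protein acts on both subunits, led in each group, with 224 per kb in minimal ADPRC, 318 in minimal mock, 342 in YEPD ADPRC and 463 in YEPD mock libraries. The 17 large-subunit genes had medians of 205, 223, 255 and 300.2 per kb in the same order. The lowest of the 50 was NOP8 (YOL144W), a large-subunit factor, with 38.8 ± 3.51 per kb in minimal ADPRC, 54.9 ± 6.53 in minimal mock, 66.6 ± 14.9 in YEPD ADPRC and 67.1 ± 3.05 in YEPD mock libraries. It was last in 11 of 12 libraries. After it came UTP9, UTP18 (YJL069C), NOP9 (YJL010C) and UTP8 (YGR128C) in minimal ADPRC, and UTP23 (YOR004W), UTP6 (YDR449C), UTP9 and IMP3 (YHR148W) in minimal mock libraries. In YEPD ADPRC libraries they were UTP9, RRP9 (YPR137W), UTP6 and NOP13 (YNL175C), and in YEPD mock libraries UTP6, UTP23, NOP13 and RRP9. No member was near the floor of 3 reads, which was 1.60 to 5.42 normalized counts, since the lowest value of any member in any library was 35.6 (IMP3, minimal mock replicate 2).

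**Figure D1:**
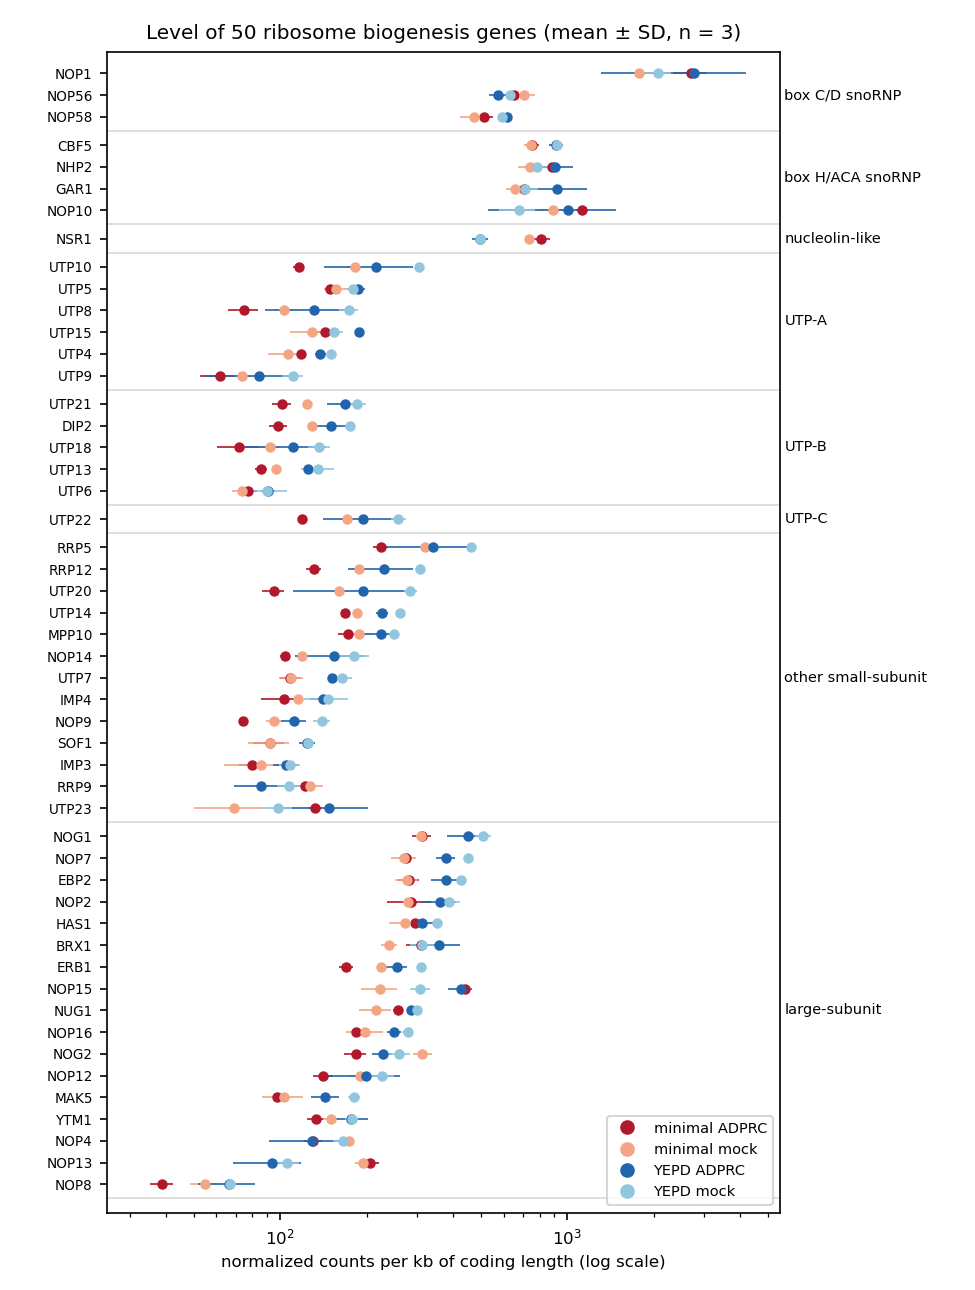
Level of each of the 50 genes (normalized counts per kb of coding length, log scale, mean ± SD over 3 libraries), ordered by role, in minimal ADPRC, minimal mock, YEPD ADPRC and YEPD mock libraries. The snoRNP genes and NSR1 lie above most other members, NOP1 is at the top with 2686, 1782, 2755 and 2061 in the 4 groups, and NOP8 is at the bottom with 38.8, 54.9, 66.6 and 67.1.

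Which of these RNAs are enriched through the enzyme was asked by setting ADPRC against mock libraries within a medium. In minimal medium 2 of the 50 genes were higher after ADPRC and 9 lower, where 14.2% of all 5490 tested features were higher and 14.6% lower (limma, adjusted p under 0.05). Both genes that were higher are short, at 663 and 765 bp, and the 9 that were lower span 1455 to 7482 bp. A log2 change is the difference of group means of log2(value + 1), and p-values were adjusted over all tested features. The median log2 change of the members was -0.07, against 0.01 for all tested features. With edgeR 2 members were higher and 8 lower (13.1% and 13.7% of all features). These values measure how much of an RNA was captured with the enzyme relative to without it, and give no fraction of capped molecules.

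NOP15 (YNL110C), whose RNA-binding protein acts in processing the large-subunit rRNA precursor, was the member with the largest increase. It had 292, 284 and 301 normalized counts in minimal ADPRC replicates 1, 2 and 3, against 168, 125 and 150.4 in minimal mock replicates 1, 2 and 3. Every ADPRC value lay above every mock value, and the log2 change was 0.99 ± 0.12 (SE, adjusted p = 0.000816). UTP23, which acts in the early processome, had 98.5, 108 and 97.6 in minimal ADPRC, against 43.4, 45.6 and 69.8 in minimal mock libraries. Its groups did not overlap either (0.95 ± 0.23, adjusted p = 0.0124), and the call ended without minimal ADPRC replicate 2 (0.91, adjusted p = 0.0525). NOP1 had 2673, 2975 and 2281 in minimal ADPRC, against 1794, 1719 and 1749 in minimal mock libraries. These groups did not overlap, but the change was not past the threshold (0.58 ± 0.25, adjusted p = 0.0878). It passed when YEPD ADPRC replicate 2, which enters the shared estimate of spread, was left out (adjusted p = 2.61e-06).

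The largest decrease was that of NOG2 (YNR053C), a GTPase of the nuclear pre-large-subunit particle. It had 332, 396 and 368 normalized counts in minimal ADPRC, against 569.5, 641 and 661 in minimal mock libraries. The groups were far apart, with a log2 change of -0.77 ± 0.11 (adjusted p = 0.00117). NOG2 is the only member whose span holds another RefSeq gene, the snoRNA SNR191, for which the table has no row. Whether reads of that snoRNA enter the NOG2 count was not tested.

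The very long processome genes were also lower. UTP20 (YBL004W), the longest member at 7482 bp, encodes a large scaffold protein and had 690.0, 656 and 782 normalized counts in minimal ADPRC, against 1135, 1243 and 1217 in minimal mock libraries (-0.76 ± 0.25, adjusted p = 0.0385). UTP10 (YJL109C), the large UTP-A subunit, had 628, 585 and 634, against 897, 1001 and 1001 in minimal mock libraries (-0.65 ± 0.20, adjusted p = 0.0278). Neither pair of groups overlapped. RRP12 (YPL012W), a repeat protein needed for export of both subunits, had 476, 459 and 513 in minimal ADPRC, against 664, 741 and 682 in minimal mock libraries (-0.53 ± 0.15, adjusted p = 0.0234). UTP22 (YGR090W), of UTP-C, had 437, 433 and 456, against 669, 630.0 and 599.7 (-0.51 ± 0.16, adjusted p = 0.0316). Again all ADPRC values were under all mock values. RRP5, of similar length at 5190 bp, had 1119, 1124 and 1239.8 in minimal ADPRC, against 1642, 1670.5 and 1645 in minimal mock libraries, without overlap but just short of the threshold (-0.51 ± 0.18, adjusted p = 0.0512). It passed without YEPD ADPRC replicate 2 (2.55e-07), replicate 3 (0.0278) or the unnumbered library (0.0446).

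ERB1 (YMR049C), the scaffold of the Nop7-Erb1-Ytm1 complex, had 407, 393 and 435 normalized counts in minimal ADPRC, against 544, 552 and 532 in minimal mock libraries (-0.40 ± 0.09, adjusted p = 0.0106). Its partners did not pass the threshold: the log2 change was 0.03 ± 0.10 for NOP7 (YGR103W, adjusted p = 0.864) and -0.18 ± 0.12 for YTM1 (YOR272W, adjusted p = 0.26). The other 3 genes called lower were NOP8 (-0.49 ± 0.16, adjusted p = 0.0371), the UTP-B gene DIP2 (YLR129W, -0.39 ± 0.12, adjusted p = 0.027) and NOP9 (-0.35 ± 0.11, adjusted p = 0.0277), which binds the small-subunit precursor. In each of these 3 the groups did not overlap. The box H/ACA genes had changes of 0.34 ± 0.23 (NOP10), 0.25 ± 0.12 (NHP2), 0.10 ± 0.16 (GAR1) and 0.01 ± 0.09 (CBF5), with adjusted p of 0.274, 0.129, 0.645 and 0.918. NOP10 and NHP2 passed without YEPD ADPRC replicate 2 (0.0167 and 0.0161). NOP56 (-0.11 ± 0.10, adjusted p = 0.413), NOP58 (0.13 ± 0.10, 0.352) and NSR1 (0.13 ± 0.09, 0.307) were not called either, and neither were the processome genes MPP10 (YJR002W, -0.12 ± 0.12, 0.455), IMP3 (-0.08 ± 0.18, 0.77) and IMP4 (YNL075W, -0.18 ± 0.15, 0.384) or the GTPase gene NOG1 (YPL093W, 0.00 ± 0.12, 0.987).

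Over all 50 genes in minimal medium, ADPRC libraries lay wholly above mock libraries for 7 and wholly below for 18, where the same held for 27.5% and 27.3% of all tested features. The calls of NOP15, NOG2 and ERB1 held without each of the 12 libraries in turn. Those of UTP20, UTP10, UTP22 and DIP2 ended without any 1 of the 6 minimal-medium libraries, with adjusted p of 0.0648 to 0.117, 0.0576 to 0.0923, 0.0607 to 0.0952 and 0.0514 to 0.0938, and that of UTP20 also without any 1 YEPD mock library (0.0548 to 0.0553). The NOP8 call ended without minimal ADPRC replicates 1, 2 or 3, minimal mock replicates 2 or 3 or any 1 YEPD mock library (0.0514 to 0.115) and under edgeR (0.0519). The NOP9 call ended without minimal ADPRC replicates 1, 2 or 3 or minimal mock replicates 1 or 2 (0.0557 to 0.0938), and the RRP12 call without minimal ADPRC replicates 1 or 2 or minimal mock replicates 1, 2 or 3 (0.0535 to 0.0832). The number lower was 2, 2 and 3 without minimal ADPRC replicates 1, 2 and 3 (5.01%, 3.84% and 8.54% of all features), and 3, 2 and 3 without minimal mock replicates 1, 2 and 3 (6.56%, 5.57% and 8.23%). Without YEPD ADPRC replicate 2 the counts were 7 higher and 15 lower, where 23.9% and 24.3% of all features were called. A fit of only the 6 minimal-medium libraries gave the same counts, where 23.5% and 22.9% of all features were called. With the same total per library 27 members were higher and 0 lower (45.3% and 0.893%), and the median of all features was then 0.44.

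**Figure D2:**
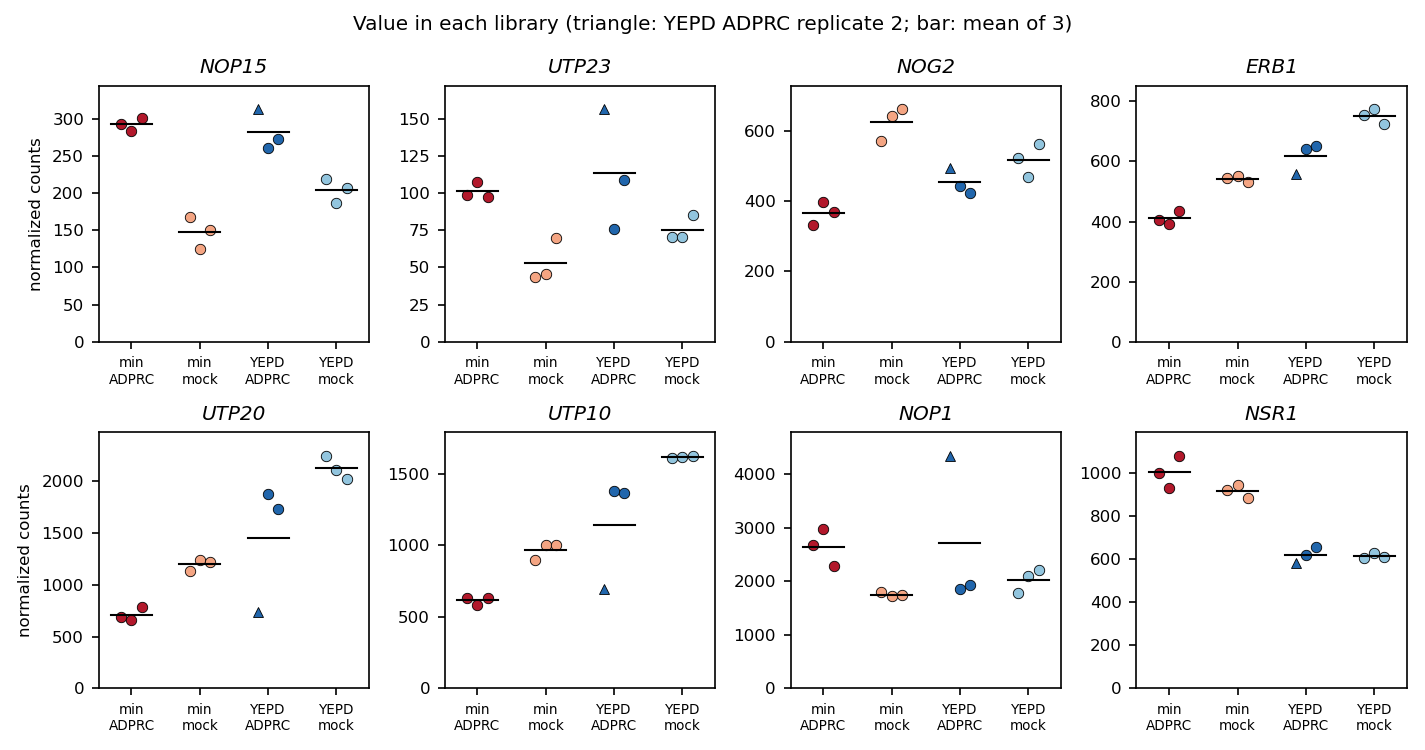
Normalized counts of 8 members in each library (1 point per library, bar at the mean of 3), with YEPD ADPRC replicate 2 as a triangle. In minimal medium NOP15 and UTP23 are higher in ADPRC than in mock libraries, NOG2, ERB1, UTP20 and UTP10 are lower, and YEPD ADPRC replicate 2 departs from its group in UTP20 (741) and NOP1 (4348).

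In YEPD 1 of the 50 genes was higher after ADPRC and 0 lower, where 4.92% of all tested features were higher and 0.546% lower (limma). With edgeR the counts were also 1 and 0 (6.27% and 1.04% of all features), and in a fit of only the 6 YEPD libraries 0 and 0 (0.838% and 0%). With limma 17 members had an unadjusted p under 0.05 in either direction. Of all 5490 tested features 808 had such a p with a positive and 755 with a negative change. The gene was again NOP15, with 313, 261 and 273 normalized counts in YEPD ADPRC replicate 2, replicate 3 and the unnumbered library, against 219, 187 and 207 in YEPD mock replicates 1, 2 and 3. The groups did not overlap (0.47 ± 0.12, adjusted p = 0.0403). The call held without YEPD ADPRC replicate 2 (0.39, adjusted p = 0.0331) or replicate 3 (0.52, 0.0243) and ended without the unnumbered library (0.0527), YEPD mock replicates 1, 2 or 3 (0.0821, 0.158 and 0.1), minimal ADPRC replicates 1, 2 or 3 (0.0702, 0.063 and 0.0638) or minimal mock replicate 3 (0.0562). It also ended with the same total outside ribosomal DNA (0.34, 0.169) and in a fit of only the YEPD libraries (0.166).

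Most members were on the low side of mock in YEPD too, but with wider spread. The median log2 change was -0.15, against 0.00 for all tested features, and 38 of 50 members were negative. ADPRC libraries lay wholly above mock for 2 genes and wholly below for 16, where this held for 15.2% and 17% of all features. UTP20 had 741, 1876 and 1734 normalized counts in YEPD ADPRC replicate 2, replicate 3 and the unnumbered library, against 2248, 2114 and 2019.8 in YEPD mock libraries. Replicate 2 was far under the other 2, and the change of -0.66 ± 0.25 was not called (adjusted p = 0.119). UTP10 had 694, 1378 and 1363 in the same order, against 1607, 1618 and 1626 in YEPD mock libraries (-0.57 ± 0.20, adjusted p = 0.102). UTP10 was called without replicate 2 (-0.24, adjusted p = 0.0421), without replicate 3 (-0.73, 0.0274) and without the unnumbered library (-0.73, 0.0497). ERB1, with 559, 642 and 650.3, against 755, 774 and 723 in YEPD mock libraries, was not called (-0.28 ± 0.09, adjusted p = 0.0859), nor was NOG2, with 494, 442 and 422, against 523, 469 and 562 (-0.19 ± 0.11, adjusted p = 0.257).

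For 4 of the 7 snoRNP genes (NOP1, NOP10, GAR1 and NHP2) replicate 2 was the highest YEPD ADPRC library. NOP1 had 4348 normalized counts there and 1855 and 1929 in the other 2 ADPRC libraries, against 1774, 2101 and 2208 in YEPD mock libraries. Its change was 0.31 ± 0.25 (adjusted p = 0.427), and -0.09 without replicate 2. NOP10, with 275, 128 and 131, against 109, 110.4 and 139 in YEPD mock libraries (0.48 ± 0.23, adjusted p = 0.185), and GAR1, with 745, 449 and 516, against 396, 427 and 492 (0.35 ± 0.16, 0.16), showed the same high value in replicate 2. In CBF5, NOP56 and NOP58 replicate 2 was the lowest of the 3 YEPD ADPRC libraries. CBF5 had 1262, 1406 and 1302, against 1338, 1382 and 1297 in YEPD mock libraries (-0.02 ± 0.09, 0.923). The highest member by change was UTP23, with 156, 75.8 and 109, against 70.2, 70.2 and 85.2 (0.53 ± 0.23, 0.151). The remaining core subunits had changes between -0.49 ± 0.18 (RRP5, adjusted p = 0.117) and 0.20 ± 0.12 (NHP2, 0.306), UTP22 (-0.45 ± 0.16, 0.109) and NOP7 (-0.25 ± 0.10, 0.131) among them.

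Without YEPD ADPRC replicate 2 the counts in YEPD were 1 higher and 1 lower (6.17% and 1.37% of all features), and without replicate 3 they were 3 higher and 11 lower (11.2% and 8.96%). The 3 were NOP15, GAR1 (0.50, adjusted p = 0.0339) and UTP23 (0.79, 0.0261), and the 11 ran from UTP20 (-0.91, 0.0261) to ERB1 (-0.32, 0.0478). Leaving out the unnumbered library gave 0 higher and 1 lower (5.28% and 1.99% of all features). The sign of the change was negative in both media for 28 members, positive in both for 11 and opposite for 11. ADPRC libraries lay wholly below mock in both media for 9 members and wholly above in both for 1, NOP15. The shares of all features with these signs and overlaps in both media were not computed. These counts therefore do not show a trait particular to the members.

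The difference between the media in the ADPRC effect was past the threshold for 0 of the 50 genes, as for 0% of all features, with limma and with edgeR. With limma 3 members had an unadjusted p under 0.05: NOG2 (-0.58 ± 0.15, adjusted p = 0.358), NOP15 (0.52 ± 0.17, 0.404) and NUG1 (YER006W, 0.33 ± 0.14, 0.553), a GTPase of large-subunit export. Of all 5490 tested features 224 had such a p with a positive and 238 with a negative difference. Without YEPD ADPRC replicate 2, 3 members differed in the positive and 8 in the negative direction, where 8.96% and 10.1% of all features did. They were NOP1 (0.68, adjusted p = 0.000527), NOP15 (0.60, 0.00727) and NUG1 (0.36, 0.0382) on 1 side. On the other were NOP8 (-0.63, 0.0344), UTP20 (-0.52, 0.00129), NOG2 (-0.51, 0.00452), NOP12 (YOL041C, -0.46, 0.0235), UTP10 (-0.41, 0.00423), UTP22 (-0.31, 0.032), RRP5 (-0.31, 0.0217) and RRP12 (-0.31, 0.0311). Leaving out YEPD ADPRC replicate 3 or the unnumbered library instead gave 0 members in either direction, so the 11 calls depend on leaving out replicate 2.

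The change after ADPRC followed gene length. Across the 50 members the Spearman correlation of the log2 change with coding length was -0.67 in minimal medium and -0.74 in YEPD (-0.65 without YEPD ADPRC replicate 2). Across the 5423 tested features of known length it was -0.68 and -0.69. These are correlations across genes, which share the same libraries and are not independent replicates. In minimal medium the 10 members under 1 kb had a median change of 0.30, the 24 of 1 to 2 kb 0.00, the 11 of 2 to 3 kb -0.29 and the 5 over 3 kb -0.53. All features in the same classes had medians of 0.36, -0.01, -0.28 and -0.52. In YEPD the members' medians were 0.25, -0.13, -0.25 and -0.49, and those of all features 0.28, -0.03, -0.22 and -0.39. In minimal medium the members' class medians thus followed those of all genes closely, and in YEPD members of 1 to 2 kb and over 3 kb had lower medians.

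Each ADPRC library showed the order by length when set against the mean of the mock libraries of its medium. The correlation across the 50 members was -0.66, -0.65 and -0.65 in minimal ADPRC replicates 1, 2 and 3, and -0.70, -0.51 and -0.62 in YEPD ADPRC replicate 2, replicate 3 and the unnumbered library. Changes of members ran from -1.52 to 1.20 in YEPD ADPRC replicate 2, against -0.25 to 0.36 in replicate 3 and -0.36 to 0.53 in the unnumbered library. The median length was 1694 bp among the members and 1269 bp among all tested features.

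With the trend in length removed, 4 members were higher after ADPRC in minimal medium and 4 lower (6.91% and 7.91% of all features). NOP15 (0.59, adjusted p = 0.00287), UTP23 (0.62, 0.0324) and NOG2 (-0.59, 0.00454) remained. The calls of UTP20 (-0.07), UTP10 (-0.05), RRP12 (-0.06), UTP22 (-0.05), DIP2 (-0.05), ERB1 (-0.12), NOP9 (-0.16) and NOP8 (-0.48, adjusted p = 0.0521) ended. Newly called were UTP4 (YDR324C, 0.43, adjusted p = 0.0156) and NUG1 (0.32, 0.0288) as higher, and NOP16 (YER002W, -0.47, 0.0145), IMP4 (-0.45, 0.0426) and GAR1 (-0.32, 0.0294, after 0.10 with the trend kept) as lower. In YEPD 0 members were called in either direction then by limma (2.67% and 0.516% of all features). There 3 members had an unadjusted p under 0.05, as did 521 of 5423 features with a positive and 454 with a negative change. NOP15 was at 0.17 (adjusted p = 0.443).

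**Figure D3:**
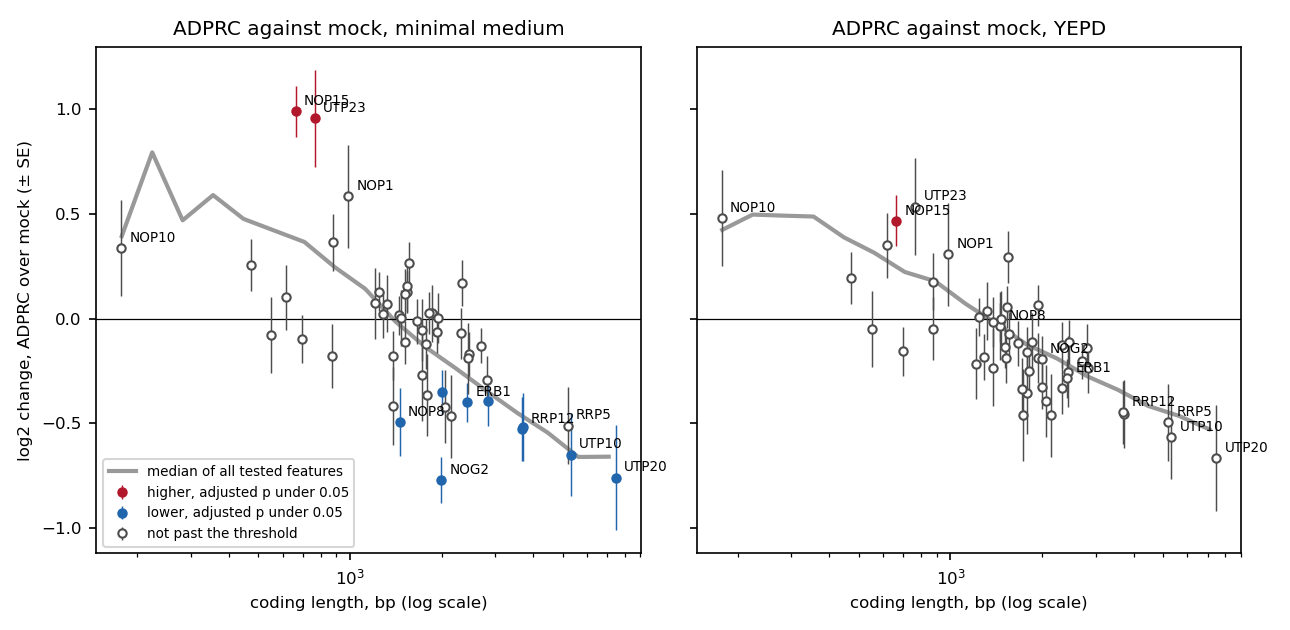
Log2 change of each member, ADPRC over mock (± SE), against coding length in bp (log scale), in minimal medium (left) and YEPD (right); the grey line is the median of all tested features of that length. Members tend to fall along the grey line, from NOP10 (177 bp) to UTP20 (7482 bp), with NOP15, UTP23 and NOG2 among those away from it in minimal medium.

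The second question the design poses is how the same RNAs differ between growth media. Most biogenesis genes were lower in minimal medium than in YEPD. Mock libraries too hold RNA recovered from beads. A difference between media in what the beads retained therefore cannot be told apart from a difference in RNA level in the cells. In mock libraries 2 of the 50 were higher and 29 lower, where 7.29% of all tested features were higher and 22.4% lower. In ADPRC libraries 3 were higher and 29 lower, where 7.05% and 25.7% were. The members called lower in both comparisons numbered 23, of 29 in each, and the share of all features called lower in both was not computed. The members' median log2 change was -0.46 in mock and -0.40 in ADPRC libraries, which is 0.26 and 0.21 below the median of all features (-0.20 and -0.19). That distance kept its sign under each scaling tried. Below the all-feature median lay 40 of 50 members in mock and 38 of 50 in ADPRC libraries. Minimal libraries lay wholly above YEPD libraries for 5 members and wholly below for 37 in mock (13.6% and 41.1% of all features), and for 3 and 30 in ADPRC libraries (8.38% and 31.8%).

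These counts rest on the scaling. With edgeR and its TMM normalization, which centres all features near 0, 4 members were higher and 10 lower in mock libraries (10.3% and 7.85% of all features), and 4 higher and 12 lower in ADPRC libraries (10.9% and 10.5%). With the same total per library, which includes the ribosomal DNA frames, 49 members in mock and 50 in ADPRC libraries were higher in minimal medium and 0 lower, where 91.1% and 94.6% of all features were higher and 2.95% and 2.51% lower. In mock and ADPRC libraries the median of all features was then 1.03 and 1.28, and the members' median lay 0.25 and 0.20 below it. Without YEPD ADPRC replicate 2, 5 were higher and 36 lower in mock (12.4% and 38%), and 5 and 34 in ADPRC libraries (18.4% and 39.4%). Fitted on only the libraries compared, 5 were higher and 35 lower in mock (12.2% and 35.8%), and 2 and 12 in ADPRC libraries (4.81% and 12.4%).

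Of the 17 large-subunit genes 10 were called lower and 1 higher in mock libraries, and 9 lower and 1 higher in ADPRC libraries. Of all features 22.4% were lower and 7.29% higher in mock, and 25.7% and 7.05% in ADPRC libraries. The 5 genes described next are among those lower in mock libraries. MAK5 (YBR142W), an RNA helicase, had 233, 282 and 204 normalized counts in minimal mock replicates 1, 2 and 3, against 408, 442 and 408 in YEPD mock libraries (-0.82 ± 0.12, adjusted p = 0.000199). NOP7 had 485, 443 and 541, against 848, 808 and 799 (-0.74 ± 0.10, adjusted p = 7.2e-05). NOG1, a GTPase of the pre-large-subunit particle, had 629, 596 and 582, against 1058, 936 and 971 (-0.71 ± 0.12, adjusted p = 0.000466). None of these groups overlapped. EBP2 (YKL172W), needed for processing of the large-subunit precursor, had 389, 353 and 324, against 532, 569 and 545 (-0.63 ± 0.11, adjusted p = 0.000822). ERB1 had 544, 552 and 532, against 755, 774 and 723 (-0.47 ± 0.09, adjusted p = 0.0019). The calls of these 5 genes in mock libraries held without each library in turn and under edgeR. That of ERB1 ended with the trend in length removed (-0.10, adjusted p = 0.328). In ADPRC libraries the same genes were lower: the log2 change was -0.55 ± 0.12 for MAK5, -0.47 ± 0.10 for NOP7, -0.52 ± 0.12 for NOG1, -0.43 ± 0.11 for EBP2 and -0.58 ± 0.09 for ERB1, with adjusted p of 0.00421, 0.00344, 0.00471, 0.0111 and 0.000326. Of these, MAK5 and ERB1 were also called by edgeR, and NOP7 (0.0649), NOG1 (0.0519) and EBP2 were not. With the trend in length removed all 5 calls in ADPRC libraries ended, with changes of -0.09 for NOP7 (0.536), -0.12 for NOG1 (0.304) and -0.16 for ERB1 (0.125).

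Processome genes were lower as well. UTP20 had 1135, 1243 and 1217 normalized counts in minimal mock, against 2248, 2114 and 2019.8 in YEPD mock libraries (-0.83 ± 0.25, adjusted p = 0.0254). RRP12 had 664, 741 and 682, against 1156, 1116 and 1127 (-0.70 ± 0.15, adjusted p = 0.00349), and UTP10 897, 1001 and 1001, against 1607, 1618 and 1626 (-0.74 ± 0.20, adjusted p = 0.0126). All 3 genes had every minimal value under every YEPD value. UTP8 had 217, 239 and 206, against 403, 354 and 358 (-0.75 ± 0.20, adjusted p = 0.0124). In ADPRC libraries the changes were -0.92 ± 0.25 for UTP20 (adjusted p = 0.014), -0.83 ± 0.20 for UTP10 (0.00661), -0.78 ± 0.15 for RRP12 (0.00178) and -0.75 ± 0.20 for UTP8 (0.0115). By module, 3 of 6 UTP-A genes, 4 of 5 UTP-B genes, UTP22 of UTP-C (-0.60 ± 0.16, 0.0142) and 9 of 13 other small-subunit genes were lower in mock libraries. In ADPRC libraries 4, 4, UTP22 (-0.66 ± 0.16, 0.00782) and 10 were, in the same order. Of all features 22.4% were lower in mock and 25.7% in ADPRC libraries. These shares were 24.2% and 26.1% among features of 1 to 2 kb, 34.3% and 44.2% at 2 to 3 kb, and 32.4% and 54.8% over 3 kb. NOP14 (YDL148C), a further processome factor, was the remaining gene of the 10 largest decreases in mock libraries (-0.59 ± 0.17, adjusted p = 0.0184). The 10 largest in ADPRC libraries also held NOP8 (-0.75 ± 0.16, 0.00362), UTP21 (YLR409C, -0.72 ± 0.11, 0.000294), DIP2 (-0.60 ± 0.12, 0.00198) and UTP18 (-0.58 ± 0.20, 0.0367). MPP10 was lower in mock (-0.40 ± 0.12, 0.0234) and ADPRC libraries (-0.37 ± 0.12, 0.0328), RRP5 likewise (-0.54 ± 0.18, 0.0407, and -0.56 ± 0.18, 0.0333), and IMP4 in ADPRC libraries (-0.46 ± 0.15, 0.0336) but not in mock (-0.33 ± 0.15, 0.116). IMP3 was called in neither (-0.36 ± 0.18, 0.149, and -0.39 ± 0.18, 0.118).

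Several of these calls rest on the tool or on single libraries. With edgeR the mock calls of UTP20 (adjusted p = 0.0794), UTP10 (0.0564), UTP8 (0.0625), UTP22 (0.0865), NOP14 (0.109), RRP5 (0.196) and MPP10 (0.259) ended, and so did the ADPRC calls of RRP5 (0.109), UTP18 (0.137), IMP4 (0.216) and MPP10 (0.284). In mock libraries the UTP20 call ended without any 1 minimal mock or YEPD mock library (adjusted p of 0.0554 to 0.0824), the RRP5 call without any 1 of these or of the minimal ADPRC libraries (0.0546 to 0.116), the UTP10 call without minimal mock replicate 1 (0.0506), the UTP8 call without YEPD mock replicate 1 (0.0543) and the UTP22 call without minimal mock replicate 3 or YEPD mock replicates 1 or 2 (0.0523 to 0.0553). The NOP14 call ended without minimal mock replicates 1 or 3 or YEPD mock replicate 1 (0.0502 to 0.0867), and the MPP10 call without minimal mock replicates 1 or 2 or any 1 YEPD mock library (0.0582 to 0.0877). In ADPRC libraries the UTP20 and UTP8 calls ended without minimal ADPRC replicate 2, YEPD ADPRC replicate 3 or the unnumbered library (0.0554 to 0.0693 and 0.0539 to 0.0569), and the RRP5 call without any 1 library but YEPD ADPRC replicate 2 among the 6 compared (0.0565 to 0.143). The UTP18 call ended without minimal ADPRC replicates 1 or 2, minimal mock replicate 2, YEPD ADPRC replicate 3, the unnumbered library or YEPD mock replicates 2 or 3 (0.0509 to 0.167), the MPP10 call without minimal ADPRC replicates 1 or 2, YEPD ADPRC replicate 3 or the unnumbered library (0.0968 to 0.142) and the IMP4 call without minimal ADPRC replicates 1 or 3 or YEPD ADPRC replicate 3 (0.0797 to 0.137). The number lower in ADPRC libraries was 17 without minimal ADPRC replicate 1 or 2 (15.3% and 15.1% of all features), 18 without YEPD ADPRC replicate 3 or the unnumbered library (14.6% and 14.1%) and 34 without YEPD ADPRC replicate 2 (39.4%). That in mock libraries was 16 and 19 without YEPD mock replicates 1 and 2 (13.9% and 13.8%). Without YEPD ADPRC replicate 2 the change of UTP20 in ADPRC libraries was -1.35, and that of RRP5 -0.85.

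Of the 7 snoRNP genes 0 were higher and 2 lower in minimal medium in mock libraries, and 0 higher and 1 lower in ADPRC libraries. Of all features 7.29% were higher and 22.4% lower in mock, and 7.05% and 25.7% in ADPRC libraries. The counts among these 7 genes therefore do not show a trait particular to them. CBF5 was lower in minimal medium in mock (-0.30 ± 0.09, adjusted p = 0.0278) and in ADPRC libraries (-0.27 ± 0.09, 0.0413), and NOP58 in mock libraries (-0.33 ± 0.10, 0.0253) but not in ADPRC libraries (-0.26 ± 0.10, 0.0624). All 3 calls ended under edgeR, with adjusted p of 0.456, 0.597 and 0.387. In mock libraries the CBF5 call also ended without minimal mock replicates 1 or 3 or any 1 YEPD mock library (0.0518 to 0.107), and the NOP58 call without the same libraries (0.0579 to 0.1). In ADPRC libraries the CBF5 call ended without any 1 library but YEPD ADPRC replicate 2 and minimal mock replicate 1 (0.0531 to 0.14). NOP1 had a change of -0.20 ± 0.25 in mock (adjusted p = 0.547) and 0.07 ± 0.25 in ADPRC libraries (0.839), NHP2 -0.08 ± 0.12 (0.642) and -0.02 ± 0.12 (0.912), GAR1 -0.11 ± 0.16 (0.618) and -0.36 ± 0.16 (0.0936), NOP56 0.16 ± 0.10 (0.235) and 0.19 ± 0.10 (0.176) and NOP10 0.40 ± 0.23 (0.197) and 0.26 ± 0.23 (0.404). NOP56 was higher under edgeR in mock (0.35, 0.0276) and ADPRC libraries (0.38, 0.0155). Without YEPD ADPRC replicate 2, NOP10 was higher in minimal medium (0.40, 0.00517, in mock and 0.62, 0.000174, in ADPRC libraries), and NOP1 lower in mock (-0.20, 0.0438) and higher in ADPRC libraries (0.47, 0.000105). YTM1, which joins ERB1 and NOP7 in 1 complex, was not called in mock (-0.24 ± 0.12, 0.139) and was lower in ADPRC libraries (-0.40 ± 0.12, 0.0201), a call that ended without minimal ADPRC replicates 1 or 2 or YEPD ADPRC replicate 3 (0.071 to 0.0758) and under edgeR (0.19).

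Against this direction, NSR1 and NOP13 were higher in minimal medium. NSR1, whose protein binds the rRNA precursor in the nucleolus, had 1003, 931 and 1082 normalized counts in minimal ADPRC, against 581, 621 and 658 in YEPD ADPRC replicate 2, replicate 3 and the unnumbered library. In mock libraries it had 924, 948 and 884 in minimal medium, against 608, 631 and 609.6 in YEPD. All 6 minimal values were above all 6 YEPD values, and the change was 0.70 ± 0.09 in ADPRC (adjusted p = 6.32e-05) and 0.58 ± 0.09 in mock libraries (0.000371). NOP13, a nucleolar RNA-binding protein gene, had 253, 266 and 228 in minimal ADPRC, against 79.3, 138 and 122 in YEPD ADPRC libraries, and 222, 232 and 254 in minimal mock, against 128, 116 and 141 in YEPD mock libraries. Its change was 1.17 ± 0.17 in ADPRC (0.000146; 0.93 without replicate 2) and 0.88 ± 0.17 in mock libraries (0.00162). Again no minimal value reached down to a YEPD value. RRP9, a protein of the U3 snoRNP, had 218, 191 and 223 in minimal ADPRC, against 114, 166 and 164 in YEPD ADPRC libraries (0.52 ± 0.15, 0.0165). In mock libraries its change of 0.24 ± 0.15 was not called (0.22). That call ended without minimal ADPRC replicates 1 (0.0598) or 3 (0.0582), and the change was 0.35 without YEPD ADPRC replicate 2 (0.0115). The calls of NSR1 and NOP13 held without each library, under edgeR and with the trend in length removed.

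NOG2 stood at 569.5, 641 and 661 normalized counts in minimal mock, against 523, 469 and 562 in YEPD mock libraries, a change of 0.27 ± 0.11 that was not called (adjusted p = 0.0786) but passed under edgeR (0.46, 0.00987) and without YEPD ADPRC replicate 2 (0.00847). In ADPRC libraries it had 332, 396 and 368 in minimal medium, against 494, 442 and 422 in YEPD, and was called lower (-0.31 ± 0.11, 0.0443). The minimal mock group was thus the highest of the 4 for this gene and the minimal ADPRC group the lowest. The call in ADPRC libraries held without minimal mock replicate 1 or YEPD ADPRC replicate 2 (-0.25, 0.0249) and ended without any 1 other library (0.0507 to 0.179) and under edgeR (0.462).

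Length ordered the difference between media as well. The Spearman correlation across the 50 members was -0.57 in mock and -0.64 in ADPRC libraries, and across all features of known length -0.30 and -0.45. In mock libraries members under 1 kb, of 1 to 2 kb, 2 to 3 kb and over 3 kb had medians of -0.34, -0.32, -0.51 and -0.70, against -0.05, -0.20, -0.30 and -0.38 for all features. In ADPRC libraries they had -0.15, -0.35, -0.55 and -0.78, against 0.01, -0.19, -0.36 and -0.48. In each class the members had the lower median. With the trend removed 7 members were higher and 11 lower in mock libraries (16.7% and 10.1% of all features), and 6 and 8 in ADPRC libraries (14.4% and 9.11%), with medians of -0.14 and -0.12, against 0.02 and 0.02 for all features. In mock libraries MAK5, NOP7, NOG1, EBP2, RRP12, UTP10, UTP20 and UTP22 were still called lower, and ERB1, UTP8, NOP14, RRP5, MPP10, CBF5 and NOP58 were not. In ADPRC libraries UTP20, UTP10, RRP12, NOP8, UTP21 and IMP4 were still called lower, and UTP8, UTP22, DIP2, ERB1, UTP18, NOG1, NOP7, RRP5, YTM1, MPP10, NOG2, CBF5, MAK5 and EBP2 were not.

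**Figure D4:**
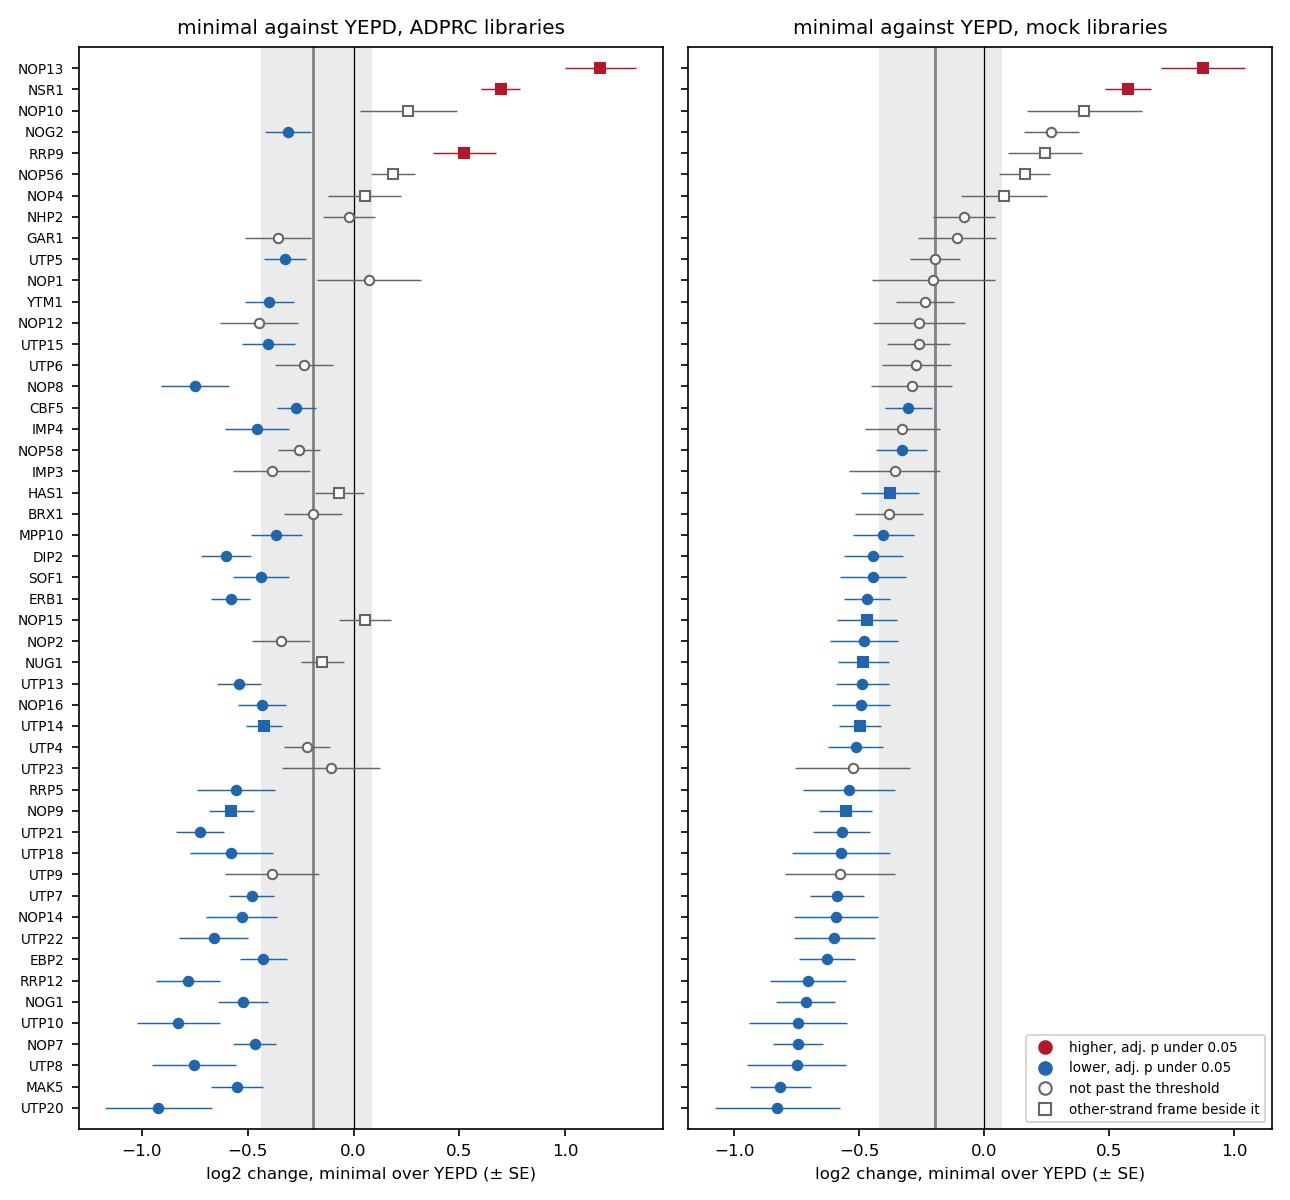
Log2 change of each member, minimal over YEPD (± SE), in ADPRC (left) and mock (right) libraries; the grey line and band are the median and quartiles of all tested features, and squares mark the 11 members with an opposite-strand frame beside them. Most members lie left of the grey line, and NOP13, NSR1 and, in ADPRC libraries, RRP9 lie to the right.

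The members that were higher in minimal medium had a frame of the opposite strand next to them in the systematic numbering, absent from the RefSeq table. Such a frame lies beside 11 of the 50 members (NOP56, NSR1, NOP10, UTP14, NOP4, NOP9, NOP13, NOP15, RRP9, HAS1 and NUG1), a split chosen after the values were seen and given without a test. Among these 11 the median change was 0.05 in ADPRC libraries (3 higher, 2 lower, 7 positive) and 0.08 in mock libraries (2 higher, 5 lower, 6 positive). Among the other 39 it was -0.44 in ADPRC libraries (0 higher, 27 lower, 1 positive) and -0.48 in mock libraries (0 higher, 24 lower, 1 positive). Of all features 7.05% were higher and 25.7% lower in ADPRC, and 7.29% and 22.4% in mock libraries.

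The frames themselves had few reads. YLR198C, beside NOP56, averaged 0.839 normalized counts in minimal ADPRC, against 14.1 in YEPD ADPRC libraries, and 0.475 in minimal mock, against 17.1 in YEPD mock libraries. YJL009W, beside NOP9, was at 0 in all minimal libraries and averaged 5.62 in YEPD ADPRC and 8.67 in YEPD mock libraries. The frames beside NOP13 and RRP9 were at 0 in all 12 libraries, and that beside NSR1 at 0 to 1.29 on average in the 4 groups. The use of strand in counting is not given in the sources used here, and the overlap of these frames with the members was not read from any coordinate. For these 11 genes a difference in counting between media therefore cannot be told apart from a difference in RNA.

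Most other genes of the pathway tested were lower in minimal medium too. Of 86 further assembly factors, 5 were higher and 57 lower in minimal ADPRC than in YEPD ADPRC libraries (median -0.45), and 5 higher and 54 lower in mock libraries (median -0.45). Of all features 7.05% were higher and 25.7% lower in ADPRC libraries, and 7.29% and 22.4% in mock libraries, which holds for the next lists too. The largest decrease in ADPRC libraries was in REA1 (-0.97 ± 0.22, adjusted p = 0.00545), the large ATPase that strips factors from the large subunit, followed by UTP25 (-0.92 ± 0.14, 0.000314) and MAK21 (-0.76 ± 0.19, 0.00912), and in mock libraries in LOC1 (-1.0 ± 0.14, 0.000142), PUF6 (-0.96 ± 0.12, 2.37e-05) and REA1 (-0.90 ± 0.22, 0.00892). RRP17, a ribonuclease gene, went the other way by a wide margin: 138, 131 and 146 normalized counts in minimal ADPRC, against 19.6, 3.39 and 10.6 in YEPD ADPRC libraries, and 92.2, 101 and 111 in minimal mock, against 3.74, 7.02 and 7.75 in YEPD mock libraries (3.77 ± 0.41, 9.77e-06, and 3.88 ± 0.41, 6.78e-06). Its YEPD values of 3.39, 3.74, 7.02 and 7.75 are close to the floor of 3 reads, and those of 10.6 and 19.6 in ADPRC libraries lie further above it. It too has such an opposite-strand frame beside it, which had at most 4.01 in any library. The other increases named by rule were RRP15 (1.05 ± 0.17) and REI1 (0.76 ± 0.11) in ADPRC libraries and PNO1 (0.80 ± 0.13) and BUD23 (0.64 ± 0.13) in mock libraries, with adjusted p of 0.000305, 0.000111, 0.000407 and 0.00261.

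Of the 11 RNA polymerase I genes 0 were higher and 6 lower in ADPRC libraries, and 0 higher and 7 lower in mock libraries (medians -0.45 and -0.44). Genes of the 132 cytosolic ribosomal proteins, the products the factors assemble, did not share that direction. In minimal medium 15 were higher and 1 lower in ADPRC libraries (median 0.19), and 23 higher and 0 lower in mock libraries (median 0.20). Their median length was 783 bp, and all features under 1 kb had medians of 0.01 in ADPRC and -0.05 in mock libraries. Of those features 9.79% were higher and 10.1% lower in ADPRC, and 9.94% and 12.3% in mock libraries. The largest changes of ribosomal protein genes were 8.11 in ADPRC and 7.56 in mock libraries. Whether a difference in counting between media enters such changes was not tested.

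After ADPRC the factors and the ribosomal proteins also differed. In minimal medium 70 of 132 ribosomal protein genes were higher and 0 lower than in mock (median 0.61), and in YEPD 34 and 0 (median 0.53). Of all features 14.2% were higher and 14.6% lower in minimal medium, and 4.92% and 0.546% in YEPD. All features under 1 kb, the class of the ribosomal proteins' median length, had a median of 0.36 in minimal medium with 29.7% higher, and 0.28 in YEPD with 11.3% higher. Of the 86 further assembly factors 11 were higher and 13 lower in minimal medium (median -0.01), and 0 and 0 in YEPD (median -0.05). With limma 27 of them had an unadjusted p under 0.05 in YEPD. Of all 5490 tested features 808 had such a p there with a positive and 755 with a negative change. The largest increases in minimal medium were in LOC1 (1.22 ± 0.14, adjusted p = 0.000723), UTP11 (0.87 ± 0.15, 0.00269) and RRP36 (0.77 ± 0.21, 0.019), all shorter than 1 kb. The largest decreases were in REA1 (-0.66 ± 0.22, 0.0423), MAK21 (-0.58 ± 0.19, 0.0372) and KRE33 (-0.56 ± 0.12, 0.00753), all longer than 3 kb. Of the RNA polymerase I genes 2 were higher and 2 lower in minimal medium, and 1 and 0 in YEPD.

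**Figure D5:**
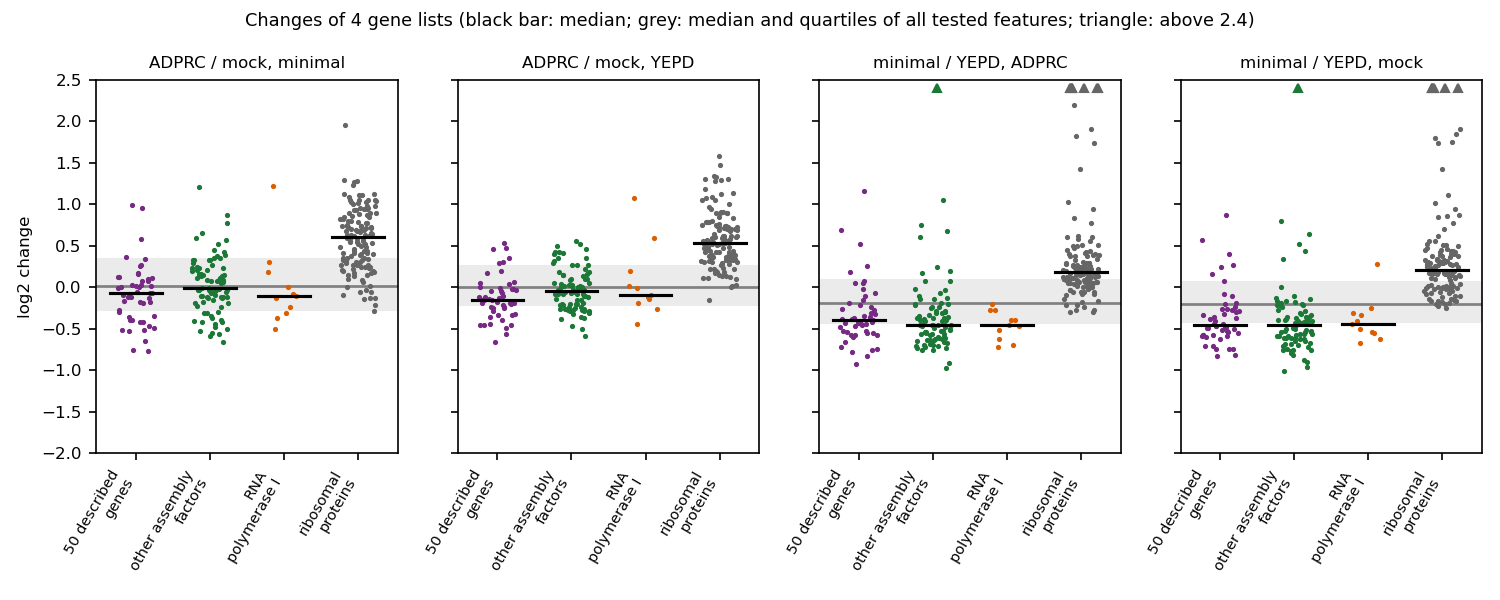
Log2 change of each gene of 4 lists in the 4 comparisons (black bar, median of the list; grey line and band, median and quartiles of all tested features; triangles, values above 2.4, of which there are 8 in ADPRC and 7 in mock libraries between media). The 50 genes, the 86 further assembly factors and the RNA polymerase I genes lie below the grey line between media, with medians of -0.40, -0.45 and -0.45 in ADPRC libraries, while ribosomal protein genes lie above it at 0.19.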

How the data were processed

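The table holds read counts per gene in 12 libraries that the authors scaled before deposit. Each deposited value is a signal: in 100% of cases it was a whole multiple of a step set by its library (tolerance 0.01 reads), and dividing by that step gave back the reads. The submitters' processing notes list FastQC, Trimmomatic, Bowtie, HTSeq and DESeq. Their versions, the genome build and the use of strand are not given here. Of 6607 distinct identifiers, 5919 matched the RefSeq R64 gene table, which gave symbols and coding lengths (introns included). One YEPD ADPRC column carries no replicate number and is called unnumbered.

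Values were taken as log2(value + 1). Features with a mean of at least 10 (5490) entered 1 limma 3.58.1 fit (R 4.3.3, trend and robust) with 4 group means and 5 contrasts. P-values are two-sided and Benjamini-Hochberg adjusted over all tested features, at a threshold of 0.05. Errors are limma's standard errors for log2 changes and standard deviations for means, with n = 3. Alternatives were a pseudocount of 8, no filter, a mean of at least 50, the same total, the same total outside ribosomal DNA, a loess trend in length (span 0.5) removed, a fit of only the libraries compared, edgeR 4.0.16 quasi-likelihood with TMM on the recovered reads, a replicate block and leaving out each library. The limma fit was tested on simulated data with 200 changed genes.

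Members and lists were chosen with earlier results of these data known. The genes named per comparison are all called members where at most 15 were called, otherwise the 10 largest per direction, the members with the highest and lowest change and a set list of core subunits, beside the 5 highest and 5 lowest levels per kb and the 3 largest changes per direction of further assembly factors. Other members are named where a setting changed their call, chosen after their values were seen. The floor of 3 reads covers counting error only. Reads of a gene and of a frame on its other strand may not be separable.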

Additional observations from a re-analysis of the deposited data

How the results depend on the processing

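With a pseudocount of 8, no filter or a mean of at least 50, no count of called members left 1.5 times its reported value. With the same total per library, 27 members were higher with ADPRC than with mock in minimal medium and 0 lower, 50 higher and 0 lower in minimal against YEPD ADPRC libraries, and 49 higher and 0 lower in mock libraries, where the median of all features was 0.44, 1.28 and 1.03; this follows from the share of ribosomal DNA frames in the total. The sign then turned after ADPRC in minimal medium for DIP2 0.038, ERB1 0.035, MPP10 0.31, NOP56 0.32, NOP9 0.082, between media in ADPRC libraries for CBF5 1.22, DIP2 0.88, ERB1 0.91, GAR1 1.13, IMP3 1.08, IMP4 1.02, MPP10 1.12, NHP2 1.47, NOG1 0.97, NOG2 1.18, NOP58 1.23, NOP7 1.02, NOP8 0.72, RRP12 0.71, RRP5 0.93, UTP10 0.66, UTP18 0.90, UTP20 0.57, UTP21 0.76, UTP22 0.83, UTP8 0.73, YTM1 1.09, and between media in mock libraries for CBF5 0.94, EBP2 0.62, ERB1 0.78, GAR1 1.14, IMP3 0.87, IMP4 0.91, MAK5 0.43, MPP10 0.84, NHP2 1.16, NOG1 0.53, NOP1 1.04, NOP14 0.65, NOP58 0.92, NOP7 0.50, RRP12 0.54, RRP5 0.71, UTP10 0.50, UTP20 0.42, UTP22 0.65, UTP8 0.49, YTM1 1.00. With the same total outside ribosomal DNA, 2 members were lower after ADPRC in minimal medium (7.30% of all features), 0 higher in YEPD (2.97%), and 15 and 19 lower between media in ADPRC and mock libraries (12.6% and 16.1%). With the length trend removed, 4 members were called in each direction for ADPRC against mock in minimal medium, 0 higher in YEPD, 6 and 8 between media in ADPRC and 7 and 11 in mock libraries, and the sign turned for GAR1 (-0.32) after ADPRC in minimal medium and for MPP10 (0.011) and NOG2 (0.094) between media in ADPRC libraries. Fitting only the libraries compared gave 7 and 15 after ADPRC in minimal medium, 0 higher in YEPD, 12 lower in ADPRC libraries and 5 higher in mock libraries. With edgeR, 12 were lower in ADPRC libraries, and 4 higher and 10 lower in mock libraries. Leaving out 1 library, the counts higher and lower ranged from 1 to 7 and 2 to 15 after ADPRC in minimal medium, 0 to 3 and 0 to 11 in YEPD, 0 to 3 and 0 to 8 for the difference, 2 to 5 and 17 to 34 between media in ADPRC libraries and 2 to 5 and 16 to 36 in mock libraries. Apart from the length trend and the total, the cause was not tested.

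The labels do not say whether samples with the same replicate number were handled together. Their deviations from the group means correlated from -0.146 to -0.0137 in 8 pairs. Between minimal ADPRC and YEPD ADPRC libraries they correlated by 0.317 for replicate 2 and 0.216 for replicate 3. Whether such samples share a batch cannot be told from these values. The fit with the replicate block, on the 11 numbered libraries, gave 0 members higher after ADPRC in YEPD and 14 lower between media in ADPRC libraries, and changed no other count by over 1.5 times. With 3 libraries a group and YEPD ADPRC replicate 2 apart, smaller changes than those called were not detectable with certainty; a change short of the threshold does not show that levels were equal.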
